A study of Mus musculus with 2 samples.

Results

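The Rel/NF-κB subunits and the IκB proteins that hold them were examined in marrow cells of wildtype and Cpdm mice, cultured without sorting, with 1 culture per genotype (2 in all). The 10 genes were taken by name: the subunit genes Nfkb1, Rela, Rel, Nfkb2 and Relb, and the IκB genes Nfkbia, Nfkbib, Nfkbie, Nfkbiz and Bcl3. All probe sets outside the array's controls that the platform annotation gives to exactly 1 of these genes were used. They came to 18 of 45037 probe sets and 9 of 18193 genes. The annotation used here names no probe set for Nfkb1, the precursor gene of RelA's usual DNA-binding partner, so Nfkb1 was not analysed here and the canonical subunits are Rela and Rel.

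Cpdm mice carry a spontaneous mutation that removes functional SHARPIN, a subunit of the complex that builds linear ubiquitin chains. Both cultures received ascorbic acid at 50 µg/ml and β-glycerophosphate at 10 mM for 10 days, per the labels, and no culture without these osteogenic supplements was analysed here. The sources used here do not give the strain, sex, age or number of the mice. Each genotype has 1 Affymetrix array, so no replicate error exists, no test between genotypes was possible and no p-value is given. The number of arrays limits the precision, and every difference describes these 2 arrays.

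NF-κB is a family of dimeric transcription factors. In the canonical pathway, TNF or interleukin-1 receptors assemble ubiquitin chains, including linear ones, that help activate the IKK kinase. IKK then marks the classical inhibitors IκBα, IκBβ and IκBε (Nfkbia, Nfkbib and Nfkbie) for destruction, which frees dimers holding RelA or c-Rel. In the non-canonical pathway, the kinase NIK (Map3k14) drives the processing of the Nfkb2 precursor, whose product pairs with RelB. The nuclear proteins IκBζ (Nfkbiz) and BCL-3 (Bcl3) bind NF-κB dimers on DNA and modify their output. Several of these genes, Nfkbia best known among them, are themselves NF-κB targets and close feedback loops. In bone, NF-κB is needed for osteoclast formation and restrains osteoblasts.

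The values are linear MAS5 signals, which are array brightness units scaled to the same level in both arrays. A floor was set at the 40th percentile of each array, a signal of 18.5 for Cpdm and 18.7 for wildtype, and genes at or above it in at least 1 array were counted as measured (14022 genes). All 18 member probe sets lay above the floor in both arrays. The log2 ratio is that of the Cpdm over the wildtype signal, and a gene with several probe sets is represented by its brightest. The 18 hybridisation spike-in probe sets had log2 ratios of 0.01 ± 0.11 (SD, n = 18 probe sets), between -0.22 and 0.20. Disagreement between the 2 brightest probe sets of a gene, both above the floor in both arrays, gave a robust SD per probe set. Over 5250 genes it was 0.32 on the log2 scale, so 2 robust SDs are 0.64 or 1.56-fold. This SD pools bright and dim probe sets, and MAS5 signals near the floor are noisy. Multiples of it are therefore less certain for dim probe sets such as those of Relb, Nfkbie and Rel. Both yardsticks cover the array and leave out the spread between mice and cultures. The 18S ribosomal control probe sets read lower in Cpdm, with log2 ratios between -3.75 and -2.37. The ratio of 3′ to 5′ signal was 1.92 in Cpdm and 1.61 in wildtype for actin. For Gapdh it was 0.84 in Cpdm and 0.72 in wildtype. The X-inactivation RNA Xist read 1113 in Cpdm and 247 in wildtype by its brightest probe set, and the Y-linked gene Uty read 42.9 and 162. With 1 array per genotype, a difference in sex between the cultures cannot be told apart from genotype. The part of these features in the differences that follow was not tested.

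Sharpin itself read 162 in Cpdm and 197 in wildtype, and 107 and 120 by its other probe set. The Cpdm mutation need not remove the transcript, so this does not check the labels. The labelled culture type was compared with marker genes. Osteoblast genes were present in the wildtype culture and lower in Cpdm. Of 7 measured markers, 6 were at least 2-fold lower, against 5.93% of all measured genes (summed signal of the list 4910 against 14748). The 2 brightest were Col1a1, a bone collagen gene, at 1070 against 3222 and Ibsp, the bone sialoprotein gene, at 3159 against 4130. The other Ibsp probe set had a log2 ratio of -2.63. The largest differences were those of Phex, at 9.66 (below the floor) against 825, Pth1r, at 81.7 against 1460, and Alpl, at 130 against 1518. Most macrophage genes were high in both cultures, but Itgam read 77.5 in Cpdm and 71.0 in wildtype. All 10 macrophage markers were measured. In the Cpdm array 9 were higher, against 52.4% of all measured genes, and 4 of them by at least 1.5-fold, against 15.7%. The summed signal of the list was 19246 in Cpdm and 14793 in wildtype. In this list Cd68, a macrophage lysosomal protein gene, read 3089 and 2545, and Lyz2, the lysozyme gene, read 2657 and 3507. The largest differences of the list were those of the chemokine receptor gene Cx3cr1, at 259 against 46.9, the Fc receptor gene Fcgr1, at 708 against 209, and Adgre1, the F4/80 antigen gene, at 2407 against 1228. Macrophages express NF-κB and IκB genes, and the part of macrophage RNA in the member values was not tested. In bulk RNA, more cells of a type and more RNA per cell cannot be told apart.

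Most members were higher in the Cpdm culture. Of the 9 genes, 7 were higher and 2, Rel and Bcl3, were lower, while 52.4% of all measured genes were higher. At least 1.5-fold higher were 6 genes (Rela, Nfkb2, Relb, Nfkbia, Nfkbie and Nfkbiz), against 15.7% of measured genes, and none was at least 1.5-fold lower, against 13.4%. When a gene's probe sets were averaged, Nfkb2 and Nfkbiz fell below that threshold and the count was 4. At least 2-fold higher were 2, Relb and Nfkbie, against 5.8% of measured genes, and no member was 2-fold lower, against 5.93%. The median log2 ratio was 0.71 over the members and 0.03 over all measured genes. Of the 18 probe sets, 15 were higher in Cpdm (background 50.6%), 11 were at least 1.5-fold higher (background 14.6%), 3 were at least 2-fold higher (background 5.3%), and 8 were higher by over 2 robust SDs (background 12.8%). The other 10 lay within 2 robust SDs, and 14 lay above the range of the spike-ins. Signals from different probe sets of a gene share the same RNA and are not replicates.

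**Figure D1:**
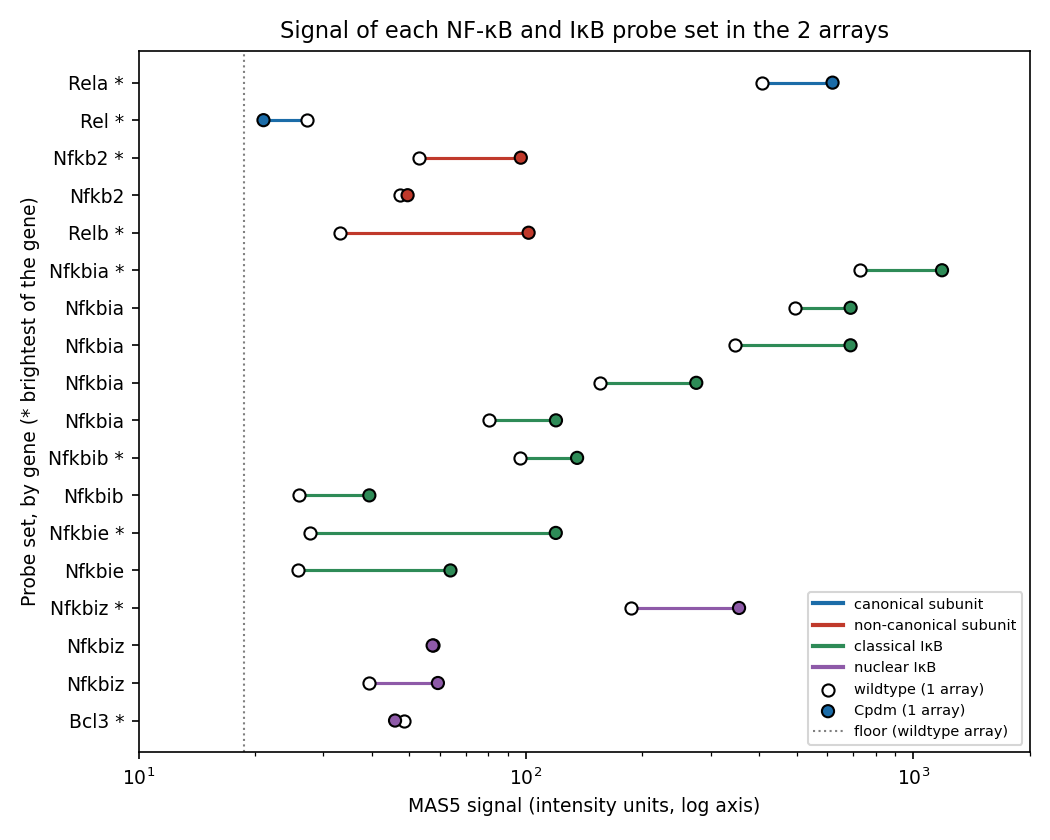
MAS5 signal of each of the 18 member probe sets (log axis), with open circles for the wildtype array, filled circles for the Cpdm array and the joining line coloured by class. The filled circle lies to the right for 15 probe sets, and Rel lies nearest the dotted floor.

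**Figure D2:**
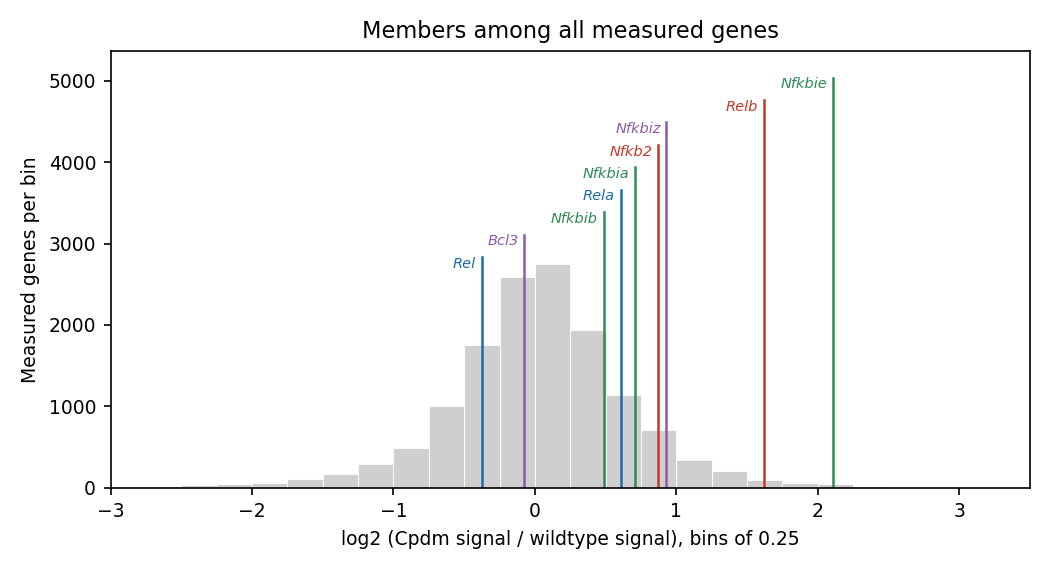
Histogram of the log2 ratio over the measured genes (bins of 0.25; the axis is drawn from -3 to 3.5), with a labelled line for each member by its brightest probe set. The height of the lines has no meaning; Relb and Nfkbie stand at 1.62 and 2.11, in the sparse right part of the distribution.

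The promoters of the members are shown because several of these genes are known targets of the factors they encode. RefSeq windows of the 250 bases before the gene start (build GRCm38.p6) were at hand for 7 member genes. Missing from the table were Nfkb1, Relb and Nfkbiz. Both strands were searched for the κB consensus, the G-rich to C-rich motif that NF-κB dimers bind. Over all genes with a window, 8.23% of 27025 held it (7.25% of 32851 windows). Among the members, Nfkb2, Nfkbia, Nfkbie and Rel held it, and Rela, Nfkbib and Bcl3 did not. The looser pattern GGGNNNNNCC, which contains the consensus, stood in 48.7% of all genes with a window (45.8% of windows) and in 6 of the 7 members, Nfkbib being the exception. The windows of the 4 members with a match, and of Rela without one, follow 5′ to 3′ on the gene's strand, with bases that belong to a consensus match in capitals and overlapping matches joined.
Nfkb2 (chr19:46304487-46304736, plus strand): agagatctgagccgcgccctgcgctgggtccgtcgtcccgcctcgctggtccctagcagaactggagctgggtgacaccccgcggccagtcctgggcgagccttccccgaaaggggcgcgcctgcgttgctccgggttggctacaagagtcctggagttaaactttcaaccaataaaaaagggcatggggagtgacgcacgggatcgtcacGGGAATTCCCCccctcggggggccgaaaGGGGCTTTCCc
Nfkbia (chr12:55492648-55492897, minus strand): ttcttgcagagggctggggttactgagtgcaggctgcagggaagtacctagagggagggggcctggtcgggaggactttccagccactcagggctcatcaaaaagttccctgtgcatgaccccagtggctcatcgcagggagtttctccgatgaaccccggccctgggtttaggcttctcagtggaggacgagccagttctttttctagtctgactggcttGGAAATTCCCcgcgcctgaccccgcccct
Nfkbie (chr17:45555450-45555699, plus strand): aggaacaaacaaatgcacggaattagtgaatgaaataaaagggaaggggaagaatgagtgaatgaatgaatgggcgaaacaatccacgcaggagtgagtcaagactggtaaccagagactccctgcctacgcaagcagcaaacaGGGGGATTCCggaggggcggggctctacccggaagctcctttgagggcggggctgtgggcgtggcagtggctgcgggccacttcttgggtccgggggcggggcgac
Rel (chr11:23770970-23771219, minus strand): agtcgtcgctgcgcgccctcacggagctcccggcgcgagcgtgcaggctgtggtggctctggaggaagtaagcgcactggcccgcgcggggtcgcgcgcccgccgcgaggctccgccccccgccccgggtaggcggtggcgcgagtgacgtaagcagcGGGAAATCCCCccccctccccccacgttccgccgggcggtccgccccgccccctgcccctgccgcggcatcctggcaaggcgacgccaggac
Rela (chr19:5637291-5637540, plus strand): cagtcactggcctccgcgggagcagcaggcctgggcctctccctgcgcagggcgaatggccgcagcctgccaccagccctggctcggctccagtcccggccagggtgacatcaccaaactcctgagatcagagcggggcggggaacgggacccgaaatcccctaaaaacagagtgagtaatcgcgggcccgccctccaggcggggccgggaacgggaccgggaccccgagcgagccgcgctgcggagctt
In the Nfkb2 window, the first stretch runs from base -39 to base -29 before the start and the second from base -11 to base -2. The Nfkbia stretch begins at base -29, the Nfkbie stretch at base -106 and the Rel stretch at base -92. The other 2 Nfkb2 windows, for further annotated starts, each held 1 match as well, beginning at bases -236 and -225. The motif was settled on after several κB patterns had been looked up in these windows, and a match describes letters only. Of the 4 genes with a match, Rel was lower in Cpdm. The others, Nfkb2, Nfkbia and Nfkbie, were higher by 1.5-fold or more by their brightest probe sets, Nfkb2 by only 1 of its 2. Of the 3 without, Rela was 1.52-fold higher, Nfkbib 1.40-fold higher and Bcl3 near equal. Over all measured genes with a window, 16.3% of those with a match and 15.3% of those without were at least 1.5-fold higher.

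Of the canonical subunit genes, Rela was higher in Cpdm, though within 2 robust SDs, and Rel had no settled direction. Rela encodes RelA, the transactivating subunit of the most common NF-κB dimer. Its only probe set read 619 in Cpdm and 407 in wildtype, 1.52-fold higher with a log2 ratio of 0.61, which is 1.89 robust SDs and lies above the spike-in range. Rel encodes c-Rel, a subunit best known from lymphocytes and myeloid cells. It read 21.0 in Cpdm and 27.2 in wildtype, a log2 ratio of -0.38 or 1.17 robust SDs. Both Rel signals lay near the floor, at 1.14 and 1.46 times its value, where MAS5 signals are noisy, so its direction is uncertain. A level near the floor does not show that c-Rel was absent.

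The non-canonical subunit genes were both higher in Cpdm by their brightest probe sets, with unequal sizes. Relb encodes RelB, the partner of the processed Nfkb2 product. Its only probe set read 102 in Cpdm and 33.0 in wildtype, 3.08-fold higher with a log2 ratio of 1.62, or 5.06 robust SDs. The wildtype signal was 1.76 times the floor, which leaves the size of the fold uncertain. Only 203 of the 14022 measured genes had a log2 ratio as high or higher. Nfkb2 read 97.0 in Cpdm and 52.9 in wildtype by its brighter probe set, a log2 ratio of 0.87 or 1.83-fold. By the other, whose _x_at suffix marks possible cross-hybridisation, it read 49.5 and 47.4, a log2 ratio of 0.06. The Nfkb2 difference thus rests on 1 of its 2 probe sets.

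Set against each other, the non-canonical subunits had a mean log2 ratio of 1.25 and the canonical ones 0.12, a difference of 1.13 log2 units. This gap was not evenly spread over the genes. Without Rel, whose signals are near the floor, it was 0.64. Relb exceeded Rela by 1.01 log2 units, which is 2.24 times the SD expected of a difference between 2 probe sets. Nfkb2 exceeded Rela by 0.27, or 0.59 times that SD, so these 2 genes did not differ beyond probe-set disagreement. With the classical IκB genes counted on the canonical side the gap was 0.54. Messenger RNA levels say nothing on the processing of the Nfkb2 precursor or on the location of the subunits.

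**Figure D3:**
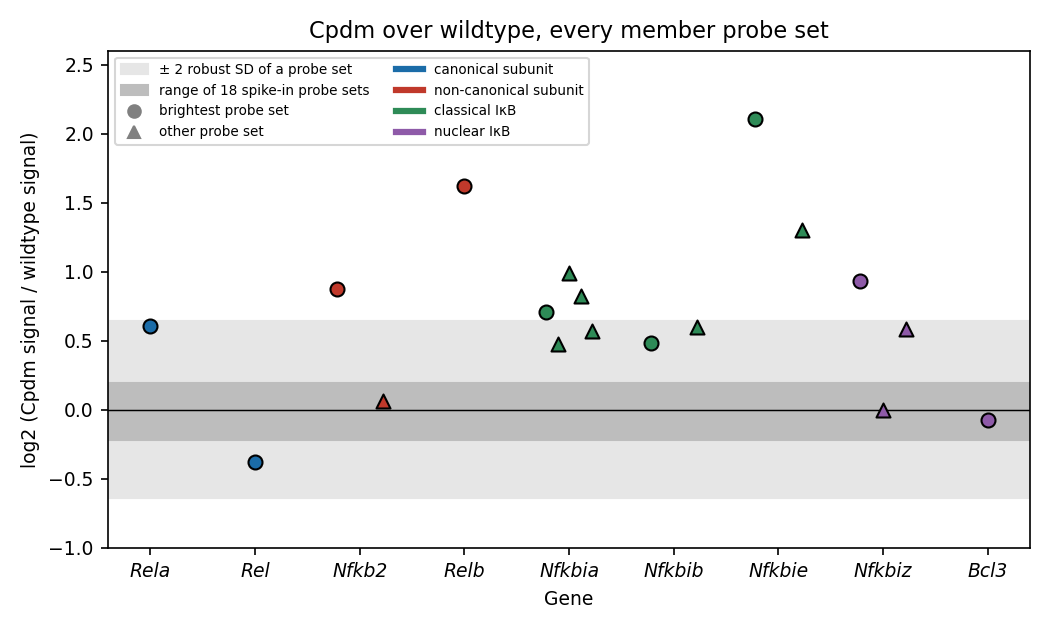
Log2 ratio of Cpdm over wildtype signal for every member probe set, with circles for the brightest probe set of a gene, triangles for the others, a light band for 2 robust SDs of a probe set on each side of 0 and a dark band for the spike-in range. Both Nfkbie probe sets and the Relb probe set stand clear of the bands, 1 Nfkb2 and 1 Nfkbiz probe set lie near 0, and Rela and Nfkbib lie inside the light band.

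The classical IκB genes were all higher in Cpdm, and each of their 9 probe sets had a log2 ratio above 0. Nfkbie encodes IκBε, an inhibitor that mostly holds dimers of RelA and c-Rel and is known as a delayed feedback regulator. It had the highest log2 ratio among the members when each was read by its brightest probe set. That Nfkbie probe set, of the _s_at kind, read 119 in Cpdm and 27.8 in wildtype, 4.30-fold higher with a log2 ratio of 2.11. The other Nfkbie probe set read 63.9 and 25.8, which is 2.47-fold higher. Without _s_at and _x_at probe sets, Nfkbie had a log2 ratio of 1.30, below Relb at 1.62. Both wildtype signals lay within 1.48 times the floor, so the fold is uncertain in size while both probe sets passed 2-fold. Only 90 measured genes had a log2 ratio as high or higher than that of the brightest one.

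Nfkbia encodes IκBα, the fast feedback inhibitor of RelA dimers, and was measured best, with 5 probe sets. The brightest read 1187 in Cpdm and 727 in wildtype, 1.63-fold higher with a log2 ratio of 0.71. The others read 689 against 496, 689 against 347, 275 against 155 and 120 against 80.4, with log2 ratios of 0.48, 0.99, 0.83 and 0.57. All 5 were thus higher in Cpdm, 3 of them by at least 1.5-fold, none by 2-fold, and their mean was 0.71. All Nfkbia signals were at least 4.29 times the floor. Nfkbib encodes IκBβ, a slower-acting inhibitor. It read 136 in Cpdm and 96.7 in wildtype by the brighter probe set and 39.4 and 26.0 by the other, log2 ratios of 0.49 and 0.60, both within 2 robust SDs.

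The 3 inhibitors shared a direction and differed in size. Nfkbie exceeded Nfkbia by 1.40 log2 units, or 3.09 times the SD of a difference between 2 probe sets, and Nfkbib by 1.62. With its lower probe set the Nfkbie log2 ratio of 1.30 was still above each of the 5 Nfkbia values. Nfkbia and Rela, inhibitor and main target, had log2 ratios of 0.71 and 0.61, which differ by 0.10 and lie within probe-set disagreement.

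The nuclear IκB genes were not alike. Nfkbiz encodes IκBζ, a cofactor induced by Toll-like and interleukin-1 receptor signals that is needed for a subset of NF-κB targets. Its brightest probe set read 355 in Cpdm and 186 in wildtype, 1.91-fold higher with a log2 ratio of 0.93. A second read 59.3 and 39.4, a log2 ratio of 0.59, and the third 57.4 and 57.6, a log2 ratio of -0.0036. The Nfkbiz probe sets thus spanned 0.93 log2 units, the widest range among the 5 members with several probe sets. Bcl3 encodes a cofactor of homodimers made from the Nfkb1 and Nfkb2 products. Its only probe set read 45.9 in Cpdm and 48.4 in wildtype, a log2 ratio of -0.07 that lies inside the spike-in range.

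The rest of the pathway was described with 8 gene lists, some of which share genes such as Birc3, Traf2 and Cyld. Their counts stand beside the shares over all measured genes: 52.4% higher by any amount, 15.7% at least 1.5-fold higher, 13.4% at least 1.5-fold lower, 5.8% at least 2-fold higher and 5.93% at least 2-fold lower. The list of negative feedback genes had a median near that of the members. So did the non-canonical targets, but these were only 5 measured genes, between -0.98 and 1.28, with a mean log2 ratio of 0.49. The medians of the signalling genes and of other κB regulators lay near that of all genes. Among 13 measured negative feedback genes, 12 were higher in Cpdm, 7 of them by at least 1.5-fold. Their median log2 ratio was 0.62, and none was 1.5-fold lower. These counts use the brightest probe set of each gene, and for several genes another probe set above the floor fell below 1.5-fold. The lowest log2 ratios were 0.38 for Tnfaip3, 0.49 for Socs3, 0.31 for Cyld, 0.15 for Tank and 0.51 for Peli1. The probe sets of Tax1bp1 ranged from 0.12 to 1.45. Socs3, a feedback inhibitor of cytokine receptors, read 305 against 151, Tnip1, a partner of the ubiquitin-editing enzyme A20, read 259 against 146, and Tnfaip3, the A20 gene, read 188 against 108. Cyld, which encodes a deubiquitinase that cuts linear chains, read 215 against 123 and stands in both the feedback and the linear ubiquitin lists.

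Genes that carry the signal to NF-κB had medians nearer 0. Of 19 measured canonical signalling genes, 2 were at least 1.5-fold higher, near the 15.7% of all genes, and 3 at least 1.5-fold lower (median 0.11). Birc3, a ubiquitin ligase gene and known NF-κB target, read 310 against 143. Map3k7, the TAK1 kinase gene, read 203 against 335 and Ikbkg, the gene of the IKK scaffold NEMO that binds linear chains, read 221 against 350. Map3k7 and Ikbkg have 6 probe sets each, of which 1 per gene was higher in Cpdm. Those above the floor ranged from -0.81 to 0.61 for Map3k7 and from -1.14 to 0.39 for Ikbkg in log2 ratio. Most probe sets of both genes were thus lower, but the direction was not shared by all. Of 10 measured non-canonical signalling genes, 3 were at least 2-fold higher and none was 1.5-fold lower (median 0.14). Besides Birc3 they were Tnfrsf12a, the TWEAK receptor gene, at 973 against 413, and the TNF receptor gene Tnfrsf1b at 556 against 270. The Tnfrsf12a value is from an _x_at probe set. By their other probe sets, both below 2-fold, Tnfrsf12a had a log2 ratio of 0.76 and Tnfrsf1b 0.11. Map3k14, the NIK gene, read 78.0 against 71.5.

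The 6 linear ubiquitin genes had a median of 0.29, with 2 at least 1.5-fold higher. Rbck1, the HOIL-1 gene, read 165 against 93.7 and Cyld was given above, while Spata2, the gene of CYLD's adaptor, had a log2 ratio of 0.37. The 9 other κB regulators had a median of -0.04. Pdlim2, a ubiquitin ligase gene for nuclear RelA, read 372 against 227, Nkap had a log2 ratio of -0.44, and Nkiras2, the gene of a small GTPase that binds IκB, had 0.35. Nfkbid, a further nuclear IκB gene outside the members, read 88.7 against 93.0.

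Ligands and targets were mixed. Of 9 ligand genes with a probe set, 4 lay below the floor in both arrays and 5 were measured, with a median of 0.08. Tnf read 83.2 against 29.0, Tnfsf13b, the BAFF gene, read 23.4 against 46.2, and Il1b had a log2 ratio of 0.12. The wildtype signal of Tnf and the Cpdm signal of Tnfsf13b lay near the floor, so the size of both differences is uncertain. Of the 3 Tnfsf13b probe sets, 1 was higher in Cpdm. Of 28 measured classical target genes, 13 were at least 1.5-fold higher, 8 of them at least 2-fold, and 2 were lower by 1.5-fold or more, 1 of these by over 2-fold (median 0.31). The latter was Ptgs2, the cyclooxygenase-2 gene, at 145 against 532 and lower by both of its probe sets. The adhesion genes Vcam1 and Icam1 read 545 against 112 and 468 against 103, and Saa3, an acute-phase gene, read 332 against 73.2. A second Vcam1 probe set had a log2 ratio of 1.18. Of 5 measured non-canonical targets, 3 were at least 1.5-fold higher and 1 was lower by that much, with a median of 0.76. Icosl, a costimulatory ligand gene, read 107 against 44.0 but had a log2 ratio of -0.44 by another probe set, and Cxcl12, a niche chemokine gene, read 1526 against 736. Tnfsf13b, also in this list, was the lower member by its brightest probe set.

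**Figure D4:**
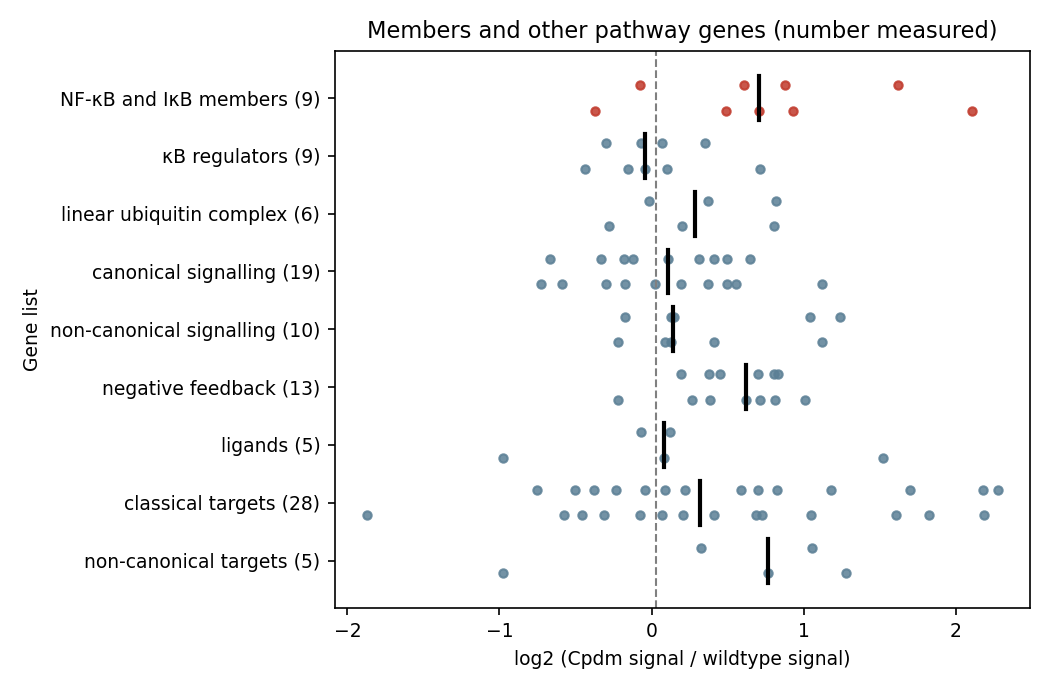
Log2 ratio of Cpdm over wildtype signal for each measured gene of the members and of 8 pathway lists, with a black bar at the list median and a dashed line at the median of all measured genes, 0.03. The members' median of 0.71 and that of the negative feedback genes, 0.62, lie to the right of the dashed line, and the κB regulators, at -0.04, lie near it.

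Markers of further cell types were compared as well. By its brightest probe set, no measured marker of osteoclasts, neutrophils or T and NK cells read higher in Cpdm. Most of them differed by less than 2 robust SDs. Among the 4 measured osteoclast genes, Ctsk, the bone-degrading protease gene, read 969 against 1890. Atp6v0d2, at 759 against 767, and Acp5, at 156 against 157, were near equal. A further 3 osteoclast markers lay below the floor in both arrays. Neutrophil markers reached at most 47.1 for S100a8 and 49.6 for Ngp, with 5 of 7 measured and none higher. Of the B cell markers, Ms4a1 read 28.1 against 37.3 and Pax5 21.9 against 30.6, and of the T and NK cell markers, Cd8a read 94.7 against 123 and Cd3e 25.7 against 30.4. The dendritic cell genes Itgax and Flt3 read 277 against 218 and 45.9 against 56.2. Mast cell genes Cpa3 and Kit read 37.7 against 28.3 and 20.4 against 48.7. Fabp4, an adipocyte gene that macrophages also express, read 455 against 532, and Adipoq, the adipocyte hormone gene, 27.3 against 17.7. Of the endothelial markers only Kdr was measured, at 75.7 against 97.9, and of the erythroid markers only Klf1, at 41.0 in both.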

How the data were processed

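Total RNA from 2 mouse cultures was profiled on Affymetrix arrays, 1 per genotype, from 5 µg of RNA each per the labels. The authors deposited linear signal intensity values made with GCOS 1.4 and MAS5, per the submitters' processing notes. The sources used here give no scaling target, detection calls or errors per value. The mean signal without the lowest and highest 2% of values was 100.001 in both columns. Genes were named through the platform annotation, with symbols checked by Entrez identifier (34741 of 34945 single-gene probe sets matched). MAS5 signals at the bottom of the scale are noisy, hence the floor at the 40th percentile. Computation used Python 3.11.15 with pandas 2.3.3 and numpy 2.4.6, and the calculation was tested on simulated data. Alternatives were other floors, scalings and probe-set rules. All members were named, with the 3 largest differences of each of 8 pathway lists and the 2 brightest genes of each of 11 marker lists. Map3k14, Nfkbid, Ptgs2, Cx3cr1, Fcgr1, Adgre1, Itgam, Phex, Pth1r, Alpl, Acp5, Sharpin, Xist and Uty were added for context after their values were seen. Members and lists were chosen with earlier results of these data known.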

Additional observations from a re-analysis of the deposited data

How the results depend on the processing

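No paired analysis was possible because each genotype has 1 array, and for the same reason no replicate could be left out. Of 76 recomputed log2 ratios of single members, 35 were the same by construction (signals above the floor, or a gene whose probe set did not change). Of the other 41, 32 moved by less than the robust SD of a probe set, 8 moved further and 1 turned sign. The latter was Nfkbiz, at -0.0036 by its second brightest probe set. The count of members at least 1.5-fold higher was 6, and between 2 and 7 under the alternatives. It was 4 of the 9 genes with the mean over probe sets, which ended the calls of Nfkb2 and Nfkbiz, 2 of 9 with a 2-fold threshold and 2 of 5 by the second brightest probe set, where fewer genes have a value. The median over members ranged from 0.48 to 0.79. The gap between non-canonical and canonical subunits was 0.45 with a floor at the 60th percentile, under which Rel is not measured, 0.54 with the classical IκB genes on the canonical side and 0.64 without Rel, an alternative chosen after seeing the data. The second brightest probe set gave no gap, since Rela and Rel have 1 each. With that floor, Relb had a log2 ratio of 1.24 and Nfkbie 1.47. Nfkb2 had 0.47, Nfkbie 1.71 and Nfkbiz 0.50 with the mean over probe sets. Without _s_at and _x_at probe sets, Nfkbie had 1.30 and no longer ranked above Relb, at 1.62.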

Other observations

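The κB consensus that stood in the promoters of Nfkb2, Nfkbia, Nfkbie and Rel was also looked up for all measured genes. Of 1187 measured genes with a match in a window, in the Cpdm culture 16.3% were higher by 1.5-fold or more and 6.74% by 2-fold, with a median log2 ratio of 0.05. Of 10072 measured genes with windows but no match, 15.3% were at least 1.5-fold higher and 5.41% at least 2-fold, with a median of 0.03. These shares lie close together, and no test was run on them.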
